A study of Rattus norvegicus with 6 samples.

Results

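The genes described here are the G1 cyclins and CDK inhibitors of the rat: the D cyclins Ccnd1, Ccnd2 and Ccnd3, the kinases Cdk4 and Cdk6, the inhibitors Cdkn1a, Cdkn1b, Cdkn1c and Cdkn2c, and the pocket protein gene Rb1. They were taken by symbol from the array's platform annotation. Of the 10 genes 9 had a probe, 1 probe each, among 13336 genes on the array, and no probe carried the symbol Ccnd3, so it is not analysed here. The RNA was from granulation tissue, by its label, that had grown in uncoated cellulose implants under the skin; the hosts were 10-week-old rats of the Sprague-Dawley stock. Of the 6 rats, 3 gave tissue at day 3 (72 hours after implantation; rats 4, 6 and 7) and 3 at day 1 (24 hours; rats 1, 2 and 3), with 1 Illumina BeadChip array per rat. All 6 implants were of the same kind and no unimplanted tissue is among the samples, so the comparison is between the 2 times alone.

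In G1, the phase before DNA is copied, growth signals raise D cyclins, which bind and activate the kinases Cdk4 and Cdk6. These kinases phosphorylate the retinoblastoma protein, encoded by Rb1, which then releases E2F transcription factors and lets cyclin E, cyclin A and the replication genes be transcribed. Inhibitors of the INK4 family, such as Cdkn2c (p18), bind Cdk4 and Cdk6 themselves, and those of the CIP/KIP family, Cdkn1a (p21), Cdkn1b (p27) and Cdkn1c (p57), bind cyclin-kinase complexes. In healing tissue this switch is known to govern when fibroblasts and endothelial cells enter the cell cycle.

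The samples were bulk RNA from a mixture of cells, and markers of several cell types differed between the days. Of 12167 probes kept above an estimated background, 2729 passed the limma test of day 3 against day 1 at an adjusted p of 0.05, 1523 of them higher and 1206 lower at day 3. Across kept probes the day 3 arrays correlated at r = 0.988 to 0.992 with each other and the day 1 arrays at 0.957 to 0.991. All 11 kept fibroblast markers lay higher at day 3 without overlap and 10 rose, and their summed intensity was 163229 to 186650 at day 3 and 62372 to 73740 at day 1. All 9 kept neutrophil markers fell, with sums of 5175 to 9880.5 at day 3 and 24210.5 to 51375 at day 1; the other 4 of that list, S100a9, Fpr1, Ltf and Ngp, were too dim to be kept. All 7 kept mast cell markers fell. Of these, Fcer1a and Ms4a2 were each above the background limit on 1 day 3 array and 3 day 1 arrays. The filter thus kept them mainly through day 1, and their direction is partly set by it. Of 8 macrophage markers 4 rose and 2 fell, and of 7 endothelial markers 5 rose. Of 10 T and NK cell markers 0 passed. Of 5 keratinocyte markers with a probe 3 were kept and passed as higher at day 3, but Krt10 and Tp63 were above the background limit on 0 day 1 arrays and Pkp1 on 1, so the filter kept them through day 3 and their direction is partly set by it. Of the genes that head the marker lists, Col1a1 differed by 4.20 and S100a8 by -2.06, both past the test, while Cd68, Kit, Pecam1 and Krt5 had no kept probe. Adipocyte markers summed to 26704 to 45215 at day 3 and, at day 1, to 120202 in rat 3, 30887 in rat 1 and 48176 in rat 2; 1 of 8 fell. Skeletal muscle markers, of which 0 of 6 passed, summed to 11759.6 in rat 6, against 848 and 876 in the other day 3 rats, and to 13461 and 13265 in rats 2 and 3, against 862 in rat 1. In such a mixture, fewer cells of a type and less RNA per cell cannot be told apart, and the part these shifts have in the results below was not tested.

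RefSeq promoter windows (build GRCr8) were matched by symbol for 6 of the 10 genes, among them Cdk4, which rose, and Cdkn1a, which fell. These 2 are printed because their calls run in opposite directions and their windows hold different motifs. The Cdk4 sequence is the 250 bases before the table's start, chr7:64771203-64771452, plus strand. For Cdkn1a the last 112 of the 250 bases lie inside the span that RefSeq gives the whole gene, so only the 138 bases outside it are printed, chr20:7150682-7150819, plus strand. Capitals mark matches to the motifs named next.
Cdk4: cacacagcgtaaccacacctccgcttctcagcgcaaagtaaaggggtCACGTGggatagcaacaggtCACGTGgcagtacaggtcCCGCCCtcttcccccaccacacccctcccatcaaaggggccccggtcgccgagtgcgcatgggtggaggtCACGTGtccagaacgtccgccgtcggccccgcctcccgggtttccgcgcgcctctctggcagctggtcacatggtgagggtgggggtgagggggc
Cdkn1a: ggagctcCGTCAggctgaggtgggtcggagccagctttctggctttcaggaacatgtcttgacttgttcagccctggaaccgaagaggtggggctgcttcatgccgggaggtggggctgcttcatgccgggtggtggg
The Cdk4 window holds CACGTG, the E-box that Myc and Max bind, 3 times, with first bases at -203, -183 and -95 from the table's start, and the GC box GGGCGG once, on the reverse strand. CACGTG occurs in 5.59% of the 33469 windows of 250 bases, both strands searched, and in 1 of the 6 member windows. The Cdkn1a window holds TGACG, the core of the cyclic AMP response element, once, on the reverse strand, with its first base at -243. For the other members much of the window lies inside the gene's own span: all 250 bases for Ccnd3 and Cdkn2c, 231 for Cdkn1b and 132 for Rb1. GGGCGG is in 30.5% of all windows and in 5 of the 6, with 6 matches for Rb1, 3 of them (first bases at -110, -70 and -13) inside the gene; the Rb1 window has a GC content of 81.2%, against a median of 51.2% over all windows. TGACG is in 18.2% of all windows and 4 of the 6. Its matches for Ccnd3, Cdkn1b and Rb1 lie inside the genes, and only that of Cdkn1a lies outside. CCAAT is in 34.0% of all windows and 2 of the 6, with 2 matches for Cdkn1b and 1 for Ccnd3, all inside the genes. The GGGCGG matches of Cdkn1b, Cdkn2c and Ccnd3 are inside the genes as well. The E2F sites TTTCGCGC, TTTGGCGC, TTTCCCGC and TTTGCCGC (1.73% of all windows together), the full TGACGTCA (1.59%; it contains TGACG), the AP-1 site TGANTCA (6.34%) and TATAAA (12.9%) were in 0 of the 6. Windows of Ccnd1, Ccnd2, Cdk6 and Cdkn1c were not used here. These matches describe letters, not bound sites.

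At day 3, relative to day 1, the cyclin-kinase pair Ccnd1 and Cdk4 rose and the inhibitor Cdkn1a fell. Of the 8 members kept for the test, 2 rose, 1 fell and 5 did not pass. Among all kept probes 22.4% passed, 12.5% upward and 9.91% downward, so 3 of 8 is a count too small to set the group apart from the rest of the array. Differences are day 3 minus day 1 on the log2 intensity scale, with the SE of the limma fit, and adjusted p-values run over all 12167 kept probes. Ccnd2 was above the background limit on 0 arrays and was not tested. The median difference of the 8 kept members was 0.017, beside -0.0074 over all kept probes.

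Ccnd1 encodes cyclin D1, the D cyclin classically induced by growth factors in fibroblasts. Its log2 levels were 12.05, 11.93 and 12.47 in rats 4, 6 and 7 at day 3, against 11.47, 11.27 and 10.72 in rats 1, 2 and 3 at day 1. All day 3 rats lay above all day 1 rats, with rat 7 highest and rat 3 lowest. The difference was 1.00 (SE 0.23, 2.00-fold, adjusted p = 0.0245 in limma). A larger change in either direction was seen in 8.91% of kept probes. Without rat 3, the rat with the high adipocyte sum, the difference was 0.78 (adjusted p = 0.0146). The call was lost when rat 2 was left out (adjusted p = 0.0687), and likewise rat 4 (0.0563), rat 6 (0.0556) and rat 7 (0.0792), while the difference stayed between 0.78 and 1.15 in the 6 refits.

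Ccnd2, cyclin D2, had levels of 6.26, 5.98 and 6.10 in rats 4, 6 and 7, against 6.13, 6.21 and 6.00 in rats 1, 2 and 3. All 6 values lie under the background limit of 6.42 on this scale, so no order between days can be read from them.

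Cdk4, a kinase partner of the D cyclins, had log2 levels of 11.40, 11.67 and 11.89 in rats 4, 6 and 7 at day 3, against 11.07, 11.06 and 10.63 in rats 1, 2 and 3 at day 1. The days did not overlap, and rat 7 was again highest and rat 3 lowest, as for Ccnd1. The difference was 0.73 (SE 0.18, 1.66-fold, adjusted p = 0.0284 in limma). Leaving out rat 3 kept the call (0.59, adjusted p = 0.0252), as did leaving out rat 4. It was lost when rat 1 was left out (adjusted p = 0.0504), and likewise rat 2 (0.0665), rat 6 (0.0954) and rat 7 (0.0906). Over the 6 arrays Cdk4 and Ccnd1 correlated at r = 0.967, and among the other pairs of kept members only Cdkn1b with Rb1 was higher (r = 0.988); these values describe 6 arrays that share the day difference.

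Cdk6, the related kinase, had levels of 7.12, 6.94 and 7.27 in rats 4, 6 and 7, against 7.40, 7.39 and 6.67 in rats 1, 2 and 3. The days overlapped: rat 3 lay under every other rat, while rats 1 and 2 lay above all 3 day 3 rats. The difference was -0.044 with a 95% interval of -0.57 to 0.48 (adjusted p = 0.925 in limma). With rat 3 left out it was -0.29 (adjusted p = 0.132). It was above 0 with rat 1 left out (0.081), with rat 2 left out (0.076) and with rat 6 left out (0.043).

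Among the inhibitors, Cdkn1a showed the largest difference of any member. Cdkn1a encodes p21, which blocks cyclin-kinase complexes and is known for holding cells in G1. Its levels were 7.35, 7.61 and 7.06 in rats 4, 6 and 7 at day 3, against 8.64, 8.64 and 7.92 in rats 1, 2 and 3 at day 1. All day 3 rats lay under all day 1 rats, and rat 3 was the day 1 rat nearest to them. The difference was -1.06 (SE 0.24, 2.09-fold lower at day 3, adjusted p = 0.0227 in limma), and 7.83% of kept probes changed more. Without rat 3 it was -1.30 (adjusted p = 0.00164). Leaving out rat 6 also kept the call, which was lost when rat 1 (adjusted p = 0.0665), rat 2 (0.0837), rat 4 (0.0615) or rat 7 (0.0781) was left out, with differences of -1.30 to -0.92 in the 6 refits.

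Cdkn1b encodes p27, an inhibitor known to be held at high levels in resting cells, largely through protein turnover. Its levels were 8.37, 8.14 and 7.78 in rats 4, 6 and 7, against 8.69, 8.98 and 8.48 in rats 1, 2 and 3. The day 3 values lay under the day 1 values without overlap, by a gap of 0.10 between rats 4 and 3. The difference of -0.62 (SE 0.19, 95% interval -1.08 to -0.16 before adjustment) did not pass over all probes (adjusted p = 0.0647 in limma). It passed without rat 3 (-0.74, adjusted p = 0.0241) and in none of the other refits that left out 1 array.

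Cdkn1c, p57, had levels of 6.94, 7.01 and 6.58 in rats 4, 6 and 7, against 6.66, 6.69 and 6.73 in rats 1, 2 and 3. Rats 4 and 6 lay above day 1 and rat 7 below it. The difference was 0.15 (95% interval -0.17 to 0.47, adjusted p = 0.505 in limma). Cdkn2c, the INK4 inhibitor p18, had levels of 6.54, 6.49 and 6.81 in rats 4, 6 and 7, against 6.47, 6.31 and 6.83 in rats 1, 2 and 3. The days overlapped across most of their range, and rat 2 was under the background limit. The difference was 0.078 (95% interval -0.31 to 0.47, adjusted p = 0.803 in limma); it was -0.038 with rat 2 left out and -0.020 with rat 7 left out.

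Rb1, the pocket protein gene on which the pathway converges, had levels of 6.50, 6.39 and 6.20 in rats 4, 6 and 7, against 6.64, 6.89 and 6.62 in rats 1, 2 and 3. The day 3 values lay lower without overlap, and only rat 4 of the day 3 rats was above the background limit, so the probe was kept mainly through day 1, which favours a higher day 1 value. The difference of -0.35 (SE 0.13) did not pass (adjusted p = 0.0935 in limma). With values under the limit raised to it, the difference was -0.27, and with an offset of 16 in place of 50 in the background correction it was -0.56.

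**Figure D1:**
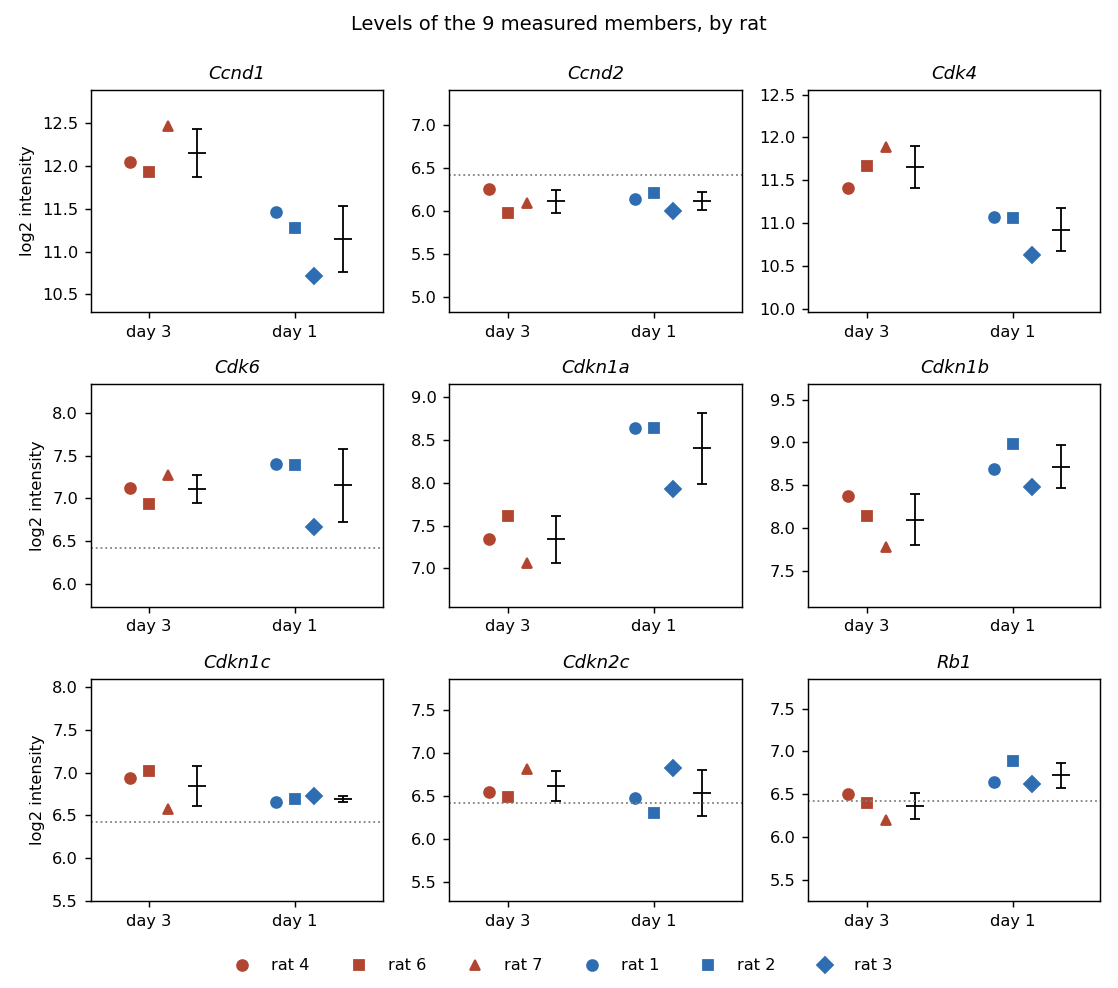
Log2 intensity of the 9 measured members, one point per rat, with day 3 on the left and day 1 on the right of each panel. Bars are the mean ± SD of 3 rats, the dotted line is the background limit of 6.42 (outside the axis in panels without it), and every panel spans the same 2.6 log2 units. Ccnd1 and Cdk4 lie higher and Cdkn1a, Cdkn1b and Rb1 lower at day 3 without overlap, but Rb1 was kept mainly through day 1.

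In all, 5 of the 8 kept members had no overlap between days, 2 higher (Ccnd1 and Cdk4) and 3 lower at day 3 (Cdkn1a, Cdkn1b and Rb1). Of these, Rb1 was kept mainly through day 1, so its direction is partly set by the filter. Among all kept probes 39.7% had no overlap, 21.8% higher and 17.9% lower at day 3, and with so few members the count is given as a description. Rat 3 lay under the mean of rats 1 and 2 in 6 of the 8 kept members, by 0.73 for Cdk6, 0.72 for Cdkn1a, 0.65 for Ccnd1, 0.44 for Cdk4, 0.36 for Cdkn1b and 0.15 for Rb1, and above it by 0.44 for Cdkn2c and 0.05 for Cdkn1c. Within day 3, rat 7 had the highest Ccnd1, Cdk4, Cdk6 and Cdkn2c and the lowest Cdkn1a, Cdkn1b, Cdkn1c and Rb1. With rat 3 left out 4 members passed, with rat 1, 4 or 6 left out 1 passed, and with rat 2 or 7 left out 0 passed. Over all probes, 3800 passed when rat 3 was left out, against 1316 for rat 2, 1343 for rat 6 and 1460 for rat 7.

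**Figure D2:**
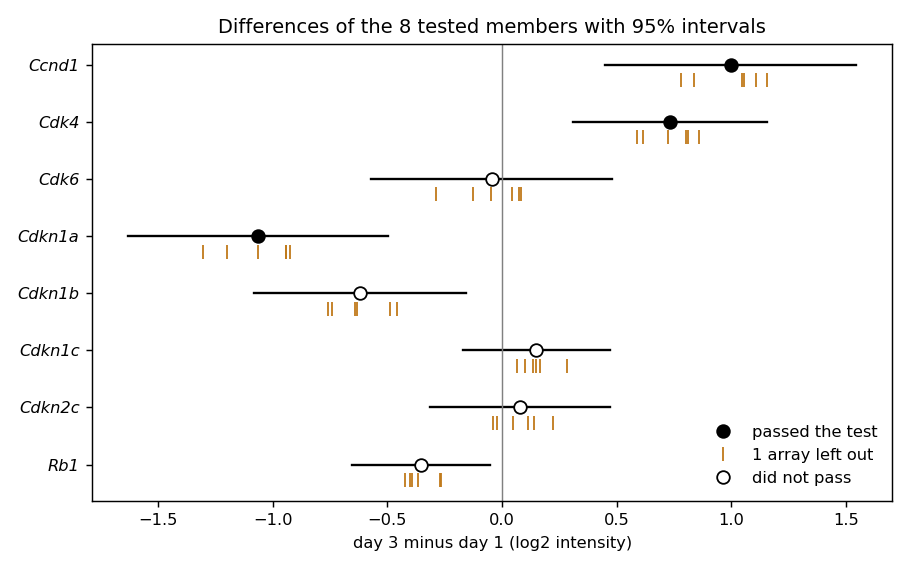
Difference in log2 intensity, day 3 minus day 1, for the 8 tested members, with 95% intervals of the limma fit before adjustment. Filled circles passed an adjusted p of 0.05, and the short ticks under each line are the 6 estimates with 1 array left out. The ticks of Ccnd1, Cdk4, Cdkn1a, Cdkn1b, Rb1 and also Cdkn1c (0.063 to 0.28, adjusted p = 0.505 in limma) stay on 1 side of 0, while those of Cdk6 and Cdkn2c cross it.

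**Figure D3:**
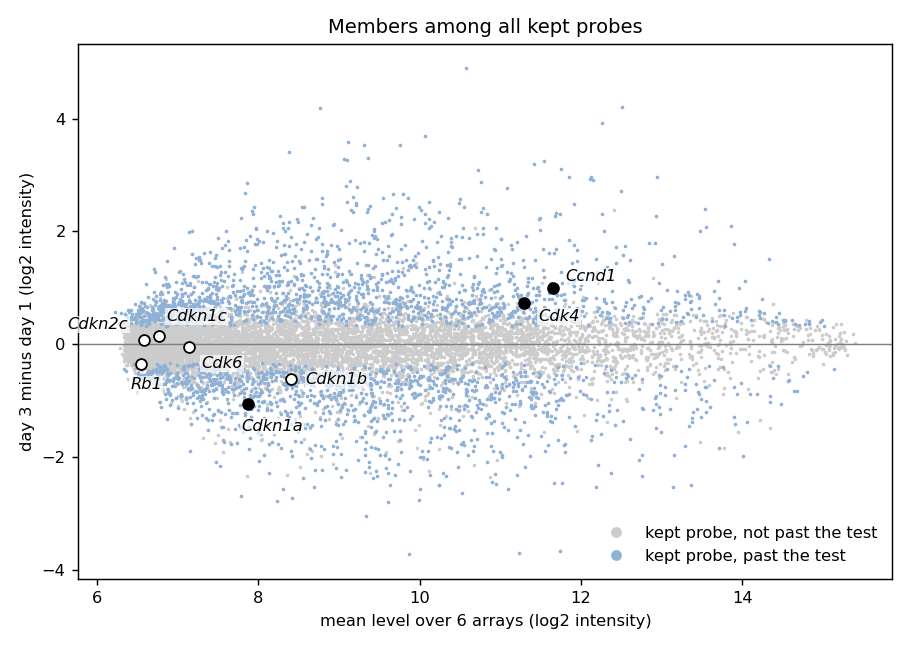
All 12167 kept probes by mean level over the 6 arrays (log2 intensity) and by day 3 minus day 1 (log2 intensity), with the members in black outline, filled where they passed the test. Cdkn1a and Ccnd1 stand among the 7.83% to 8.91% of largest changes, and the unfilled members Cdk6, Cdkn1c and Cdkn2c lie within 0.15 of 0.

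A related list held the E and A cyclins, their kinases, the other pocket proteins, the E2F factors and the CDK-activating kinase. Cdk2, Cdk7, Rbl1, E2f2, E2f4, E2f5, E2f6 and E2f8 had no probe under their symbols, and Ccna1 and E2f7 were too dim to be kept. Of the 12 kept genes 2 rose, 0 fell and 10 did not pass, with a median of 0.17. The share past the test was 16.7%, beside 24.3% of all 8673 kept genes (13.5% upward, 10.7% downward, median -0.0086). Both that rose act in S phase and mitosis: Cdk1, the mitotic kinase, by 2.41 (SE 0.23, adjusted p = 0.00181 in limma) and Ccna2, cyclin A2, by 1.87 (SE 0.20). Cdk1 had levels of 11.75, 12.02 and 12.20 in rats 4, 6 and 7, against 10.05, 9.51 and 9.18 in rats 1, 2 and 3. The G1 cyclin Ccne1 and the factor E2f1, named after their values were seen, differed by 0.14 and 0.54 (adjusted p = 0.514 and 0.112 in limma) and did not pass.

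Of 4 other CDK inhibitors only Cdkn3 was kept. Despite its name it encodes a phosphatase that acts on CDKs, and it rose by 2.52 (SE 0.27, adjusted p = 0.00245 in limma), opposite to Cdkn1a. Its levels were 10.19, 10.35 and 10.53 in rats 4, 6 and 7, against 8.32, 7.96 and 7.23 in rats 1, 2 and 3. In the ubiquitin ligases that degrade G1 cyclins and CDK inhibitors 2 of 8 rose and 0 fell (median 0.21). The share past the test was 25%, near the 24.3% of all kept genes. The 2 that rose were Cks1b, the cofactor with which the Skp2 ligase recognises p27, by 1.37 (SE 0.14), and Ddb1, an adaptor of the Cul4 ligases, by 0.81 (SE 0.14). Skp2 itself differed by -0.011 (adjusted p = 0.974 in limma) and was dim, above the background limit on 2 day 3 arrays and 1 day 1 array. Cdk1, Ccna2, Cdkn3, Cks1b and Ddb1 passed in each of the 6 refits that left out 1 array.

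Of 12 S phase and proliferation markers 7 rose, 0 fell and 5 did not pass (median 0.75). The share past the test was 58.3%, beside 24.3% of all kept genes. When rat 2 or 6 was left out 2 rose, and 3 rose when rat 7 was. The largest rises were those of Rrm2, a subunit of ribonucleotide reductase, by 1.10 (SE 0.12), and of the replicative helicase subunits Mcm7 by 0.99 (SE 0.21; adjusted p above 0.05 when rat 2 (0.0755), rat 6 (0.0552) or rat 7 (0.053) was left out) and Mcm6 by 0.87 (SE 0.19; adjusted p above 0.05 when rat 2 (0.0661), rat 6 (0.0715) or rat 7 (0.0607) was left out). Cdc6, which helps load that helicase, rose by 0.77 (SE 0.13). Rrm2 and Cdc6 passed in all 6 refits. The DREAM and MuvB complex represses cell cycle genes in resting cells and activates them in dividing ones. Of 5 kept genes of its list 2 rose and 1 fell (median 0.11). The share past the test was 60%, beside 24.3% of all kept genes, but 5 genes are too few to set the list apart. The complex subunits tested, Lin37 and Lin54, differed by -0.34 and 0.11 and did not pass, while Lin9, Lin52 and Rbbp4 had no probe under their symbols. Mybl2 and Foxm1, activating partners of the complex, rose by 1.65 (SE 0.16) and 0.86 (SE 0.15). Dyrk1a, the kinase that promotes assembly of the repressive form and marks cyclin D for degradation, fell by 0.57 (SE 0.10).

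Of 14 kept genes of mitogen signalling to cyclin D 1 rose, 3 fell and 10 did not pass (median -0.09). The share past the test was 28.6%, near the 24.3% of all kept genes. With rat 2 left out 0 rose and 0 fell, with rat 4 or 7 left out 0 and 1, and with rat 6 left out 0 and 2. With rat 1 left out 2 rose and 2 fell, and with rat 3 left out 1 rose and 5 fell. Ets2, an ETS transcription factor of the Ras pathway, fell by 1.35 (SE 0.27, adjusted p = 0.052 without rat 2). Map2k1, the kinase MEK1, fell by 0.80 (SE 0.21) and passed in 1 of the 6 refits, the one without rat 3. Max, the partner of Myc, fell by 0.63 (SE 0.13; adjusted p above 0.05 when rat 2 (0.0737), rat 4 (0.0614) or rat 7 (0.0691) was left out) and was above the limit on 2 of 3 day 3 arrays. Etv4, an ETS factor, was above the limit on 3 day 3 arrays and 0 day 1 arrays. The filter thus kept Etv4 through day 3, and its direction is partly set by the filter. The day 3 mean of Etv4 was 1.22-fold above the estimated limit. Its adjusted p of 0.0244 in limma tests the measured day 1 values, which lie under that limit (above 0.05 when rat 2 (0.0849), rat 4 (0.0553), rat 6 (0.0915) or rat 7 (0.0548) was left out). With values under the limit raised to it, 0 genes of the list rose and 3 fell, so the call of Etv4 was lost.

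**Figure D4:**
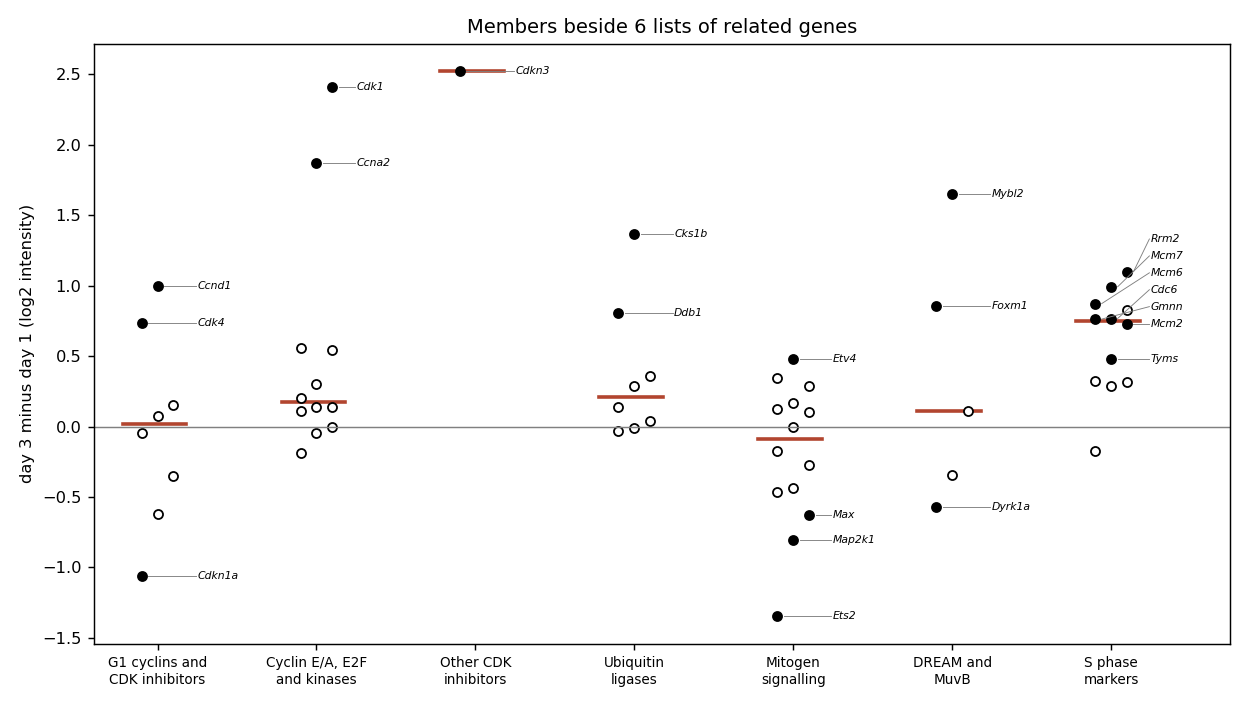
Difference in log2 intensity, day 3 minus day 1, of each kept gene in the G1 cyclins and CDK inhibitors and in 6 lists of related genes. Filled circles passed an adjusted p of 0.05 and carry a name, open circles did not, and the bar is the median. The S phase list lies almost wholly above 0 (median 0.75), while the members spread on both sides (median 0.017).

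By Pearson correlation over the 6 arrays, the kept genes most like Ccnd1 were Ubxn11 (r = 0.999), Trmt112 (r = 0.996) and Rpp21 (r = 0.995). Their differences were 0.39 (adjusted p = 0.0666), 0.51 (adjusted p = 0.0399) and 0.90 (adjusted p = 0.0327 in limma); the calls of Trmt112 and Rpp21 held in 2 of the 6 refits, those without rats 1 and 3. Those most like Cdkn1a were Shoc2 (r = 0.999), Mob3a (r = 0.995) and Padi4 (r = 0.995), with differences of -0.46, -1.16 and -0.48 (adjusted p = 0.0372, 0.021 and 0.0413 in limma). The calls of Shoc2 and Padi4 held in 1 of the 6 refits, the one without rat 3, and that of Mob3a in 2, without rats 3 and 6. These correlations over 6 arrays share the day difference.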

How the data were processed

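Expression was measured on 6 Illumina BeadChip arrays, 1 per rat, from 100 ng of total RNA each. The intensities used are those the authors deposited, on a linear scale and already normalised: all 6 columns share a median of 104, and values run from 60.6 to 45354. Limma is the tool named in the submitters' processing notes, and how the scanner software treated background is not given in the sources used here. A second table with 12 columns whose names match no sample was not used.

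The deposited intensities were background-corrected (normexp, offset 50), quantile-normalised and put on the log2 scale. Background was estimated from the values: the mode was 86.0 and the limit 101, the 95th percentile of a normal distribution about that mode (6.42 on the analysed scale). Probes above it on at least 3 of 6 arrays were kept, 12167 of 22517; of all probes 13787 carried 1 gene symbol and 8730 none. Limma 3.58.1 (R 4.3.3; lmFit, eBayes, two-sided) compared day 3 with day 1, with Benjamini-Hochberg adjustment over the kept probes. The rats differ between days, so no pairing was used. List genes are represented by their kept probe with the highest mean.

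All members are named. From each list up to 4 genes past the test with the largest differences are named, and for the members that changed most in each direction the 3 genes with the highest correlation. Outside this rule, Ccne1, E2f1, Skp2, Lin37 and Lin54 are given with values though they did not pass. The members and lists were chosen with earlier results of these data known. One further list of genes and one promoter motif are not reported here. The limma fit was tested on simulated log2 values, but the background correction, normalisation and filter were not. The number of arrays limits the precision. Alternatives were other background corrections, normalisation, filters, variance models, array weights and leaving out each array.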

Additional observations from a re-analysis of the deposited data

How the results depend on the processing

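With 8 other settings (no background correction, offset 16, cyclic loess, no filter, a stricter filter, trend and robust variance, array weights, values under the limit raised to it), Ccnd1 (0.73 to 1.01), Cdk4 (0.60 to 0.74) and Cdkn1a (-1.25 to -0.997) kept direction and call. Array weights gave 5 members past the test, adding Cdkn1b (-0.65) and Rb1 (-0.36). Trend and robust variance added Rb1 (-0.35). The cause of these added calls was not tested, and Rb1 was kept mainly through day 1, which favours a higher day 1 value. The stricter filter left Rb1 and Cdkn2c untested. Of 4 mitogen genes past the test, the stricter filter gave 2 and array weights 7.

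With 1 array left out, members past the test numbered 0 to 4 and probes 1316 to 3800. Differences ran from 0.78 to 1.15 for Ccnd1, 0.59 to 0.86 for Cdk4, -0.29 to 0.081 for Cdk6, -1.30 to -0.92 for Cdkn1a, -0.76 to -0.46 for Cdkn1b, 0.063 to 0.28 for Cdkn1c, -0.038 to 0.22 for Cdkn2c and -0.42 to -0.27 for Rb1. Ccnd1, Cdk4 and Cdkn1a each passed in 2 of 6 such refits, which hold fewer arrays. No paired analysis was possible because the days share no rat. For members near the background limit the difference depends on the offset: with an offset of 16 it was -0.56 for Rb1, 0.13 for Cdkn2c and 0.21 for Cdkn1c.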
